A study of Homo sapiens with 18 samples.

Results

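The genes described here are 46 interferon-stimulated genes, taken from a fixed list of symbols and found through their Ensembl identifiers in a table of 16575 genes. All 46 were in the table, and 44 of them reached 5 CPM (reads of a gene scaled to the size of its library) in at least 1 library, the level that 13022 genes passed. IFI44L and XAF1 did not. The study sequenced capped RNA 5′ ends (CAGE-seq) in CAL-29, HT-1376 and RT-112, which are 3 lines from urinary bladder carcinomas, and asked how WWOX, a protein with WW domains, modulates expression in cells with more of the transcription factors AP-2α or AP-2γ. Each line was transduced with lentivirus first with WWOX (W) or a blank control (K) and then with AP-2α (A), AP-2γ (C) or a blank control (K), which gave KK, KA and KC without WWOX, WK, WA and WC with it, and 18 libraries, 1 for each line and variant. WWOX was carried by the pLenti-GIII-CMV-GFP-2A-Puro system and AP-2 by pLKO-Neo-CMV, so that the CMV promoter drove the transgenes, and cells were selected with puromycin after the first transduction and with G418 after the second. Libraries of a line are transductants of 1 line, so a p-value measures the spread among them. Whether the W libraries, or the K libraries, of a line came from separate first transductions was not stated in the sources used here. A test of WWOX within a line may therefore rest on 1 first transduction of each kind. RT-112 was grown in RPMI-1640 and the others in DMEM, so medium and line cannot be told apart. In bulk RNA, fewer cells with a transcript and less of it per cell cannot be told apart either. A CAGE read marks 1 capped 5′ end, so a CPM value does not depend on gene length.

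Type I and type III interferons bind receptors on the cell surface whose kinases activate STAT proteins. STAT2 joins IRF9 in a complex that binds the interferon-stimulated response element (ISRE) in promoters and raises many antiviral genes together. Interferon-γ acts mainly through the gamma-activated site (GAS). Epithelial cells, among them urothelial cells, carry this system, and many tumour lines keep part of it active or have lost part of it.

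Between 13357102 and 17958572 reads on genes lay behind the libraries, and 3 reads, the limit allowed by a count of 0, were worth 0.158 to 0.213 CPM (counting error only). The library labelled CAL-29 KC went against its label: it held 46 of 47 genes that marked HT-1376 and 7 of 68 that marked CAL-29, so it is given apart and was left out of the fits with a term for the cell line, which used 17 libraries. As a check of the labels, WWOX was at 63.7 CPM in CAL-29 KK and 155 in CAL-29 WK, but at 69.3 and 62.4 in CAL-29 WA and WC. In the RT-112 and HT-1376 libraries WWOX lay between 16.95 and 26.04 CPM, with and without the transgene. Whether the deposited value of a gene counts reads of its transgene was not stated in the sources used here. The study checked the transductions by Western blot for the WWOX and AP-2 proteins. TFAP2C, the gene of AP-2γ, was at 58.0 CPM in RT-112 KK and 264 in KC, and also measured 180 CPM in the library labelled RT-112 WA. In HT-1376 it was at 158 CPM in KK and 214 in KC. TFAP2A, the gene of AP-2α, was at 18.01 and 46.8 CPM in RT-112 KK and KA, but at 25.3 in the library labelled RT-112 WA, whose label is therefore in doubt. In HT-1376 TFAP2A was at 69.0 CPM in KK, 101 in KA and 69.9 in WA, and TFAP2C was at 163 in WC. In CAL-29 TFAP2A was at 35.4 CPM in KK, 49.9 in KA and 86.7 in WA, and TFAP2C at 87.95 in KK and 339 in WC. Of 10 epithelial markers all 10 passed 5 CPM, of 5 leukocyte markers 0 and of 5 fibroblast and endothelial markers 1 (COL1A1).

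The promoters of the interferon-stimulated genes are shown first, since the ISRE is the element through which interferon acts on many genes of this kind. RefSeq promoter windows of 300 bases, from 250 before to 50 after a start (GRCh38.p14), matched 38 of the 46 genes, and IRF7, OAS2, OASL, IFIT2, IFITM2, GBP2, USP18 and TRIM22 had none. The ISRE core, GAAA and GAAA with any 2 bases between them, stood on either strand in the windows of 26 of the 38 genes (68.4%), against 4.38% of all 27305 genes. The GAS motif TTCNNNGAA was found for 12 genes (31.6%, against 9.38%), and the AP-2 motif GCCNNNGGC for 10 (26.3%, against 26.6%). ISRE and GAS matches may overlap. The table that was deposited has 1 value per gene, so which start was used was not measured. The promoters of BST2, the gene called for WWOX in HT-1376, of IFI27 and IFI6, with large effects of WWOX, and of IFITM1, with a wide range over the lines, are given 5′ to 3′ in the sense of the gene, with ISRE and GAS matches in capitals.
BST2 promoter, chr19:17405581-17405880, minus strand: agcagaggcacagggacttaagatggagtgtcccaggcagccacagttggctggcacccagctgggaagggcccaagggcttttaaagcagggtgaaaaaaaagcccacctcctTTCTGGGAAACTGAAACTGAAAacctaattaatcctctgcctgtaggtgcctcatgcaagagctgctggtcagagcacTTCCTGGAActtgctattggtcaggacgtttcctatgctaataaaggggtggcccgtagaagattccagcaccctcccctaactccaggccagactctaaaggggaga
IFI27 promoter, chr14:94110486-94110785, plus strand: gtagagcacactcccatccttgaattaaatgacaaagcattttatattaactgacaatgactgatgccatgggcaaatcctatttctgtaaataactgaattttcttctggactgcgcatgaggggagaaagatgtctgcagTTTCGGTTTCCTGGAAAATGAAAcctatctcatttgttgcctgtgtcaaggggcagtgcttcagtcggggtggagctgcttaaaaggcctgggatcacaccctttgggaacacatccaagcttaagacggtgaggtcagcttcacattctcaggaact
IFI6 promoter, chr1:27672143-27672442, minus strand: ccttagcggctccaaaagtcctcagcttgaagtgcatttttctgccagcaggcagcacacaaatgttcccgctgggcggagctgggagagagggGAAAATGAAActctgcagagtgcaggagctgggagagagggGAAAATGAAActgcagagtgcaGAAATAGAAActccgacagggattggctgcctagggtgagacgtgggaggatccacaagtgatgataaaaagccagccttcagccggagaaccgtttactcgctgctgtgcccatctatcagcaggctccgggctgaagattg
IFITM1 promoter, chr11:313790-314089, plus strand: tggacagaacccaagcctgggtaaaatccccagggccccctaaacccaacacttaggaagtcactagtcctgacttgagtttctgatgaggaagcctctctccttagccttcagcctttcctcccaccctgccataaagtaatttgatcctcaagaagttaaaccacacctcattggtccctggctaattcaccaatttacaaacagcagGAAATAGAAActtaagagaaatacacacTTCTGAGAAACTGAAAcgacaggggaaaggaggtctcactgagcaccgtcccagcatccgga
In BST2, 2 overlapping ISRE cores began 130 and 124 bases before the start and 1 of the 2 GAS matches ran into the first of them. In IFI27 a GAS match overlapped both an ISRE core on the minus strand and one on the plus strand, 108 and 95 bases before the start. IFI6 held 3 ISRE cores and IFITM1 held 2, the nearer of which began 6 bases before the start. Single ISRE cores of 10 further genes are given with 5 bases on each side. No rule was fixed for their choice, and all 10 hold CC or CT between the GAAA parts, read on the strand of the motif. Other cores hold other letters there, such as TC in LGALS3BP, GC in PARP14 and GG in another core of ISG15.
ISG15: aaaggGAAACCGAAActgaa
IFITM3: gttgaGAAACCGAAActact
MX1: gaaatGAAACCGAAActgaa
OAS3: gaaacGAAACTGAAAgcagg
IFIT5: ttaagTTTCGGTTTCtgaag
ISG20: aactaGAAACTGAAAcaggg
SAMD9: gaaatGAAACTGAAAccaaa
RSAD2: tcaacTTTCAGTTTCacatg
DTX3L: gaagcGAAACTGAAActttg
PARP9: caaagTTTCAGTTTCgcttc
The DTX3L and PARP9 cores are the same 10 bases, chr3:122564332-122564341, read on opposite strands between the divergent starts of the 2 genes. Matches are letters in a window and say nothing of binding.

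RT-112 had the lowest level of most interferon-stimulated genes. Of the 44 genes past the filter, 37 had their lowest line mean in RT-112, against 57.7% of all genes. The highest line mean was that of CAL-29 for 22 and that of HT-1376 for 20. In limma, with Benjamini-Hochberg adjustment over all genes, 40 of the 44 differed between RT-112 and HT-1376 (adjusted p under 0.05), 3 higher and 37 lower in RT-112. Of all genes 62.2% differed, 19.6% higher and 42.6% lower. Between RT-112 and CAL-29, 32 differed, 1 higher and 31 lower in RT-112, where 72.4% of all genes differed, 15.9% higher and 56.5% lower. Between HT-1376 and CAL-29 the count was 22 of 44, 9 higher and 13 lower in HT-1376, and 60.8% of all genes differed, 18.3% higher and 42.5% lower.

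The median log2FC of RT-112 against HT-1376, on the scale log2(CPM + 0.5), was -1.59 over the 44 genes and -0.43 over all genes. Against CAL-29 it was -1.63 and -0.82. The medians of all genes moved to -0.09 and -0.14 with TMM scaling, and the counts to 36 (3 higher, 33 lower) and 29 (4 higher, 25 lower). Between HT-1376 and CAL-29 TMM turned the 9 higher and 13 lower into 13 higher and 9 lower, and quantile normalization into 18 higher and 6 lower, so that no direction is given for that pair as a whole. The filter favoured a difference for a gene that reached 5 CPM only in the line where it is high. Of the 44 genes 20 reached that level in RT-112, against 38 in HT-1376, and 40 did so in CAL-29. Among the 20 that did so in both RT-112 and HT-1376, 19 differed, 3 higher and 16 lower in RT-112. Among the 20 that did so in both RT-112 and CAL-29, 13 differed, 1 higher and 12 lower, which is a smaller share than the 72.4% of all genes. All 6 RT-112 libraries lay below all 6 HT-1376 libraries for 26 genes (59.1%, against 29.1% of all genes) and below all 5 CAL-29 libraries for 26 (against 43.4%).

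**Figure D1:**
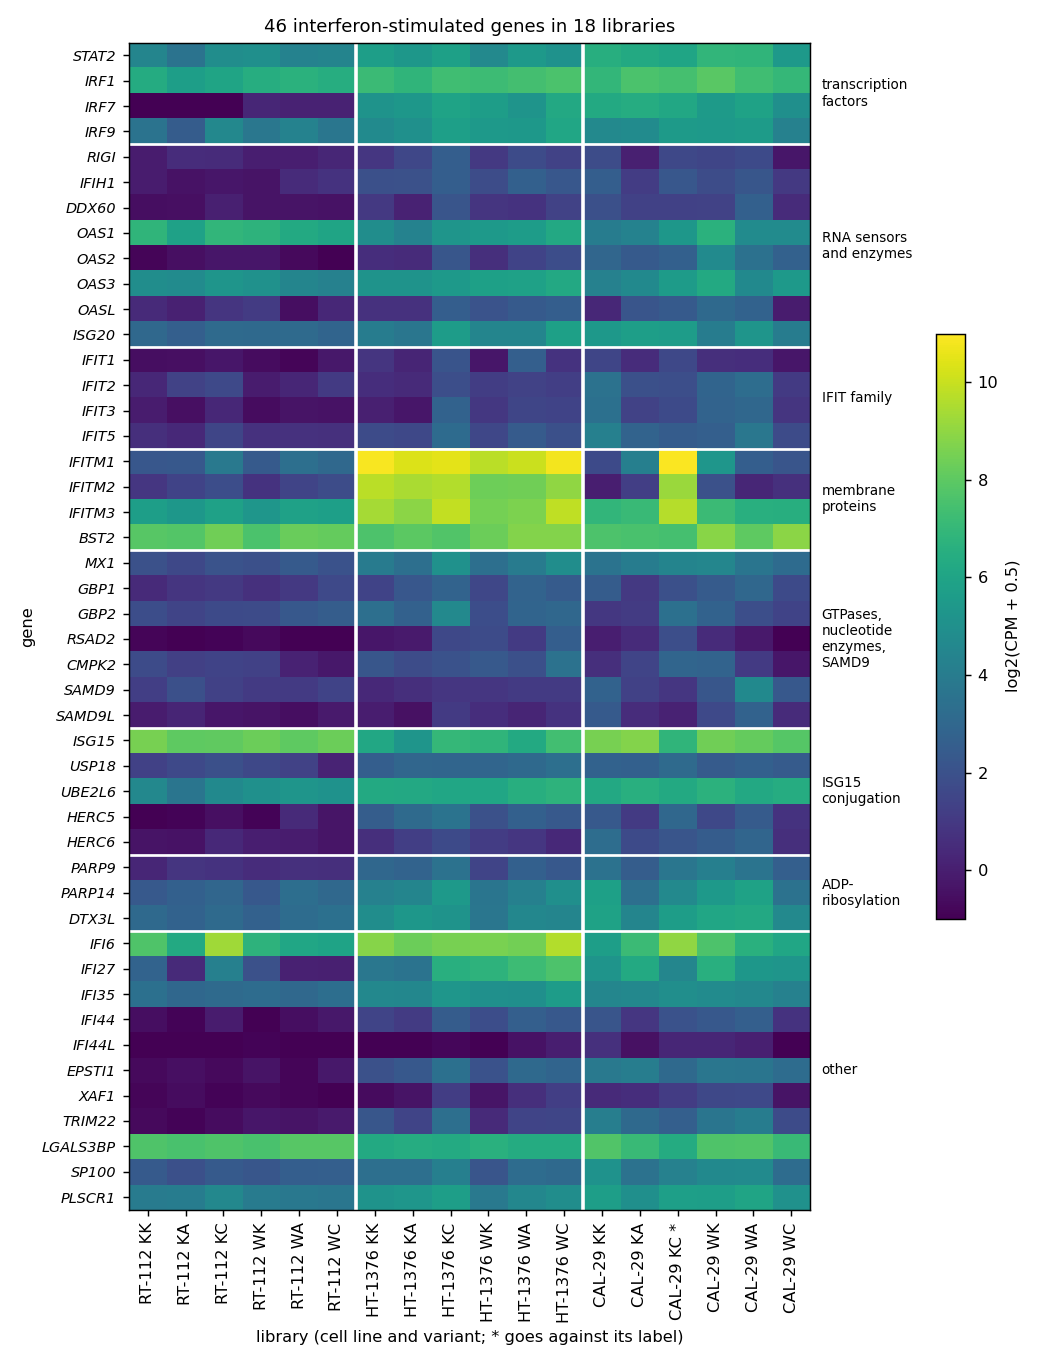
Level of each of the 46 genes, as log2(CPM + 0.5), in each of the 18 libraries; rows are genes in 8 groups by role, columns are libraries by cell line and variant, and brighter cells are higher. The RT-112 columns are darker than the others in 37 of 44 rows by line mean, IFITM1 and IFITM2 are bright in HT-1376 and under the label CAL-29 KC (marked with a star), and OAS1, ISG15 and LGALS3BP are brighter in RT-112 than in HT-1376.

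All 4 transcription factors differed between RT-112 and either other line. IRF7, the factor that amplifies interferon production, had no reads in RT-112 KK, KA and KC, and was at 0.71, 0.61 and 0.6 CPM in WK, WA and WC. In HT-1376 it lay between 35.5 and 74.3 CPM (median 45.7), and in CAL-29 between 30.7 and 85.9 (median 58.9). Thus every RT-112 library was below every other one, with a log2FC of -6.01 ± 0.32 (SE) against HT-1376 (adjusted p = 3.4e-10 in limma). IRF7 did not reach 5 CPM in RT-112 and passed the filter through the other lines, so the filter favoured this difference. IRF1, which drives interferon-γ targets and was the most abundant factor, ran from 52.0 to 99.3 CPM in RT-112 (median 85.7). Its lowest, median and highest levels were 115, 155 and 191 CPM in HT-1376, and 125, 161 and 246 CPM in CAL-29. The RT-112 libraries did not overlap with the others, at a log2FC of -0.98 ± 0.18 against HT-1376 (adjusted p = 0.00023 in limma), and IRF1 did not differ detectably between HT-1376 and CAL-29 (-0.06 ± 0.19). STAT2 and IRF9, partners in the complex that binds the ISRE, were lower in RT-112 than in HT-1376 by 0.93 ± 0.28 and 1.67 ± 0.32 on the log2 scale.

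The interferon-induced transmembrane proteins, which hinder the entry of viruses into cells, included the genes with the widest range of line means among the 44, IFITM2 and IFITM1. IFITM1 lay between 862 and 1903 CPM in HT-1376 (median 1389), between 4.32 and 13.8 in RT-112 (median 6.34), and between 2.75 and 38.4 in CAL-29 (median 5.51). IFITM2 was at 329 to 865 CPM in HT-1376 (median 619) and 1.2 to 3.1 in RT-112 (median 2.2), with 0.5 to 3.43 in CAL-29 (median 1.07). IFITM3 was at 358 to 942 CPM in HT-1376 (median 581) and 38.7 to 58.0 in RT-112, with 90.5 to 144 in CAL-29. HT-1376 stood apart from both other lines for each of the 3 genes, without overlap. The log2FC of HT-1376 against CAL-29 was 7.19 ± 0.55 for IFITM1, 8.21 ± 0.35 for IFITM2 and 2.26 ± 0.22 for IFITM3 (SE, adjusted p of 2.51e-08, 2.74e-11 and 5.85e-07 in limma). With the library labelled CAL-29 KC left aside, IFITM2 reached 5 CPM only in HT-1376, so the filter favoured its difference. RT-112 and CAL-29 did not differ detectably in IFITM1 (-0.33 ± 0.55) or IFITM2 (0.46 ± 0.35). The 3 genes are neighbours on chromosome 11 (GENCODE 44, GRCh38: IFITM2 at 303655 to 309397, IFITM1 at 310041 to 315272, IFITM3 at 319676 to 329475), and since they are close paralogs the split of reads between them is uncertain. The library labelled CAL-29 KC held 1921, 591 and 811 CPM of IFITM1, IFITM2 and IFITM3, above the 5 other CAL-29 libraries. IFITM2 and IFITM3 were there inside the HT-1376 ranges, and IFITM1 was just above the highest HT-1376 library. BST2, or tetherin, which holds budding virus at the cell membrane, showed no such pattern: its medians were 262 CPM in both RT-112 and CAL-29 and 283 CPM in HT-1376, and none of the 3 pairs of lines differed in the test.

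**Figure D2:**
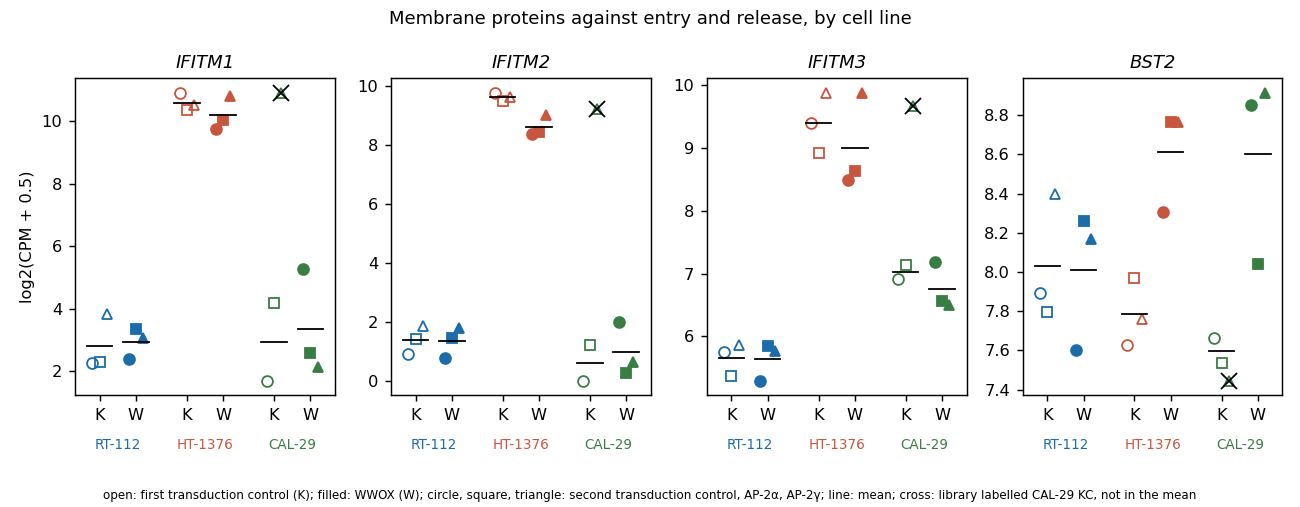
Levels of IFITM1, IFITM2, IFITM3 and BST2 as log2(CPM + 0.5) in each library, by cell line and first transduction; symbols mark the second transduction, lines are means, and the crossed point is the library labelled CAL-29 KC. IFITM1 and IFITM2 in HT-1376 lie above every RT-112 and CAL-29 library other than the crossed one, and BST2 overlaps between the lines.

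Among RNA-directed enzymes OAS1, which makes the 2-5A signal that activates RNase L, ran the other way. It lay between 57.4 and 119 CPM in RT-112 (median 92.8), between 19.8 and 75.4 in HT-1376 (median 39.9) and between 15.9 and 102 in CAL-29 (median 27.3). The ranges overlapped, and the log2FC of RT-112 was 1.14 ± 0.33 against HT-1376 and 1.55 ± 0.35 against CAL-29 (adjusted p = 0.0075 and 0.001 in limma). OAS2, its paralog at 112978395 to 113011723 on the same chromosome 12, was instead at 0 to 0.33 CPM in RT-112 and 0.91 to 4.18 in HT-1376, with 4.76 to 26.3 in CAL-29, a log2FC of -3.87 ± 0.41 for RT-112 against CAL-29. The RT-112 level lay near the limit of 3 reads, so that the size of this value depends on the 0.5 CPM added. With the library labelled CAL-29 KC left aside, OAS2 reached 5 CPM only in CAL-29, so the filter favoured this difference. The RNA sensors RIGI and IFIH1 stayed below 6.1 CPM in all libraries.

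ISG15, the ubiquitin-like protein that is conjugated to other proteins after interferon, was higher in RT-112 than in HT-1376, but not than in CAL-29. It lay between 256 and 370 CPM in RT-112 (median 290), between 38.0 and 163 in HT-1376 (median 95.7) and between 226 and 440 in CAL-29 (median 339). HT-1376 did not overlap with either line, at a log2FC of 1.71 ± 0.26 for RT-112 against HT-1376 (adjusted p = 4.2e-05 in limma). The enzymes that conjugate it did not follow this order. UBE2L6, its conjugating enzyme, was at 12.2 to 37.2 CPM in RT-112 and 68.3 to 109 in HT-1376, with 74.0 to 104 in CAL-29. HERC5, its ligase, was at 0 to 0.84 CPM in RT-112 and 3.44 to 11.3 in HT-1376, with 1.18 to 5.02 in CAL-29. It passed the filter through the other lines and not through RT-112, which favoured a difference. LGALS3BP, a secreted glycoprotein, was the third gene higher in RT-112 than in HT-1376, by 1.29 ± 0.14 on the log2 scale.

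In the remaining groups, 3 of 4 IFIT genes and 5 of 7 GTPases, nucleotide enzymes and SAMD9 proteins were lower in RT-112 than in HT-1376 in the test. So were 3 of 3 genes of the ADP-ribosylation group and 8 of 9 other interferon-stimulated genes. Of all genes 42.6% were lower. SAMD9 was instead higher in every RT-112 library than in every HT-1376 library, and GBP2 and IFI6 had their lowest mean in CAL-29. The 4 IFIT genes, MX1, GBP1, RSAD2, CMPK2, SAMD9, SAMD9L, PARP9, IFI44, TRIM22 and EPSTI1 did not reach 5 CPM in RT-112. They passed the filter through the other lines, which favoured a difference, and SAMD9 did so through CAL-29 only. IFIT5, an RNA-binding protein and the most abundant of the 4 IFIT genes, lay between 0.79 and 2.35 CPM in RT-112 (median 1.1), between 2.47 and 8.58 in HT-1376 (median 3.08) and between 2.87 and 17.99 in CAL-29 (median 6.47). MX1, a GTPase that blocks viral nucleocapsids, was at 2.53 to 4.75 CPM in RT-112 (median 3.56) and 9.92 to 33.2 in HT-1376 (median 15.3), with 8.77 to 22.04 in CAL-29 (median 12.1). RT-112 did not overlap with the others in either gene. DTX3L, the ubiquitin ligase partner of PARP9, was at 6.04 to 10.4 CPM in RT-112 (median 8.19) and 12.6 to 41.0 in HT-1376 (median 26.1), with 21.2 to 75.7 in CAL-29 (median 60.4). For MX1 the log2FC of RT-112 was -2.12 ± 0.30 against HT-1376 and -1.83 ± 0.32 against CAL-29, and for DTX3L -1.63 ± 0.35 and -2.41 ± 0.37. EPSTI1 was at 0.06 to 0.36 CPM in RT-112 and at 9 to 16.3 in CAL-29, a log2FC of -4.30 ± 0.28, with the same limit.

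The question of the study, how the variants differ from KK, gave no call. In the limma fit of the 6 variants over 18 libraries without a term for the line, 0 of 44 interferon-stimulated genes and 0 of 13022 genes (0%) passed in WK, KA, KC, WA and WC against KK, all of which share the KK libraries. At an unadjusted p under 0.05 there were 0, 0, 0, 0 and 1 of the 44 (BST2 in WC/KK, log2FC 0.89 ± 0.35, adjusted p = 0.9998 in limma). Of all genes 0.292%, 0.0538%, 0.0845%, 0.284% and 0.645% were under that p in limma. DESeq2 on recovered reads called 3, 2, 4, 3 and 9 genes, and 0 of the 44 in each. In what follows the lines are therefore described one by one, with 1 library against 1, which has no replicate check and no test.

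KC, with AP-2γ alone, had the highest mean of the 44 genes in RT-112 and in HT-1376. The mean log2FC of KC against KK was 0.37 in RT-112, where the median of all genes was 0.13, and 0.87 in HT-1376, where it was -0.01. It was 0.42 in the library labelled CAL-29 KC, with IFITM1 at a log2FC of 9.21. In HT-1376 39 of the 44 genes were above KK (47.4% of all genes) and 22 of them past 2-fold (7.55% of all genes). In RT-112 33 of 44 were above KK (65.9% of all genes) and 5 past 2-fold (1.91% of all genes). The number of genes above KK in both lines was 29 of 44, or 65.9%, against 31.5% of all genes, and CMPK2 was the only one of the 44 below KK in both. Only 20 of the 44 reached 5 CPM in RT-112. Some of the 29 rested there on few reads, such as IFIT1 (0.17 CPM in KK, 0.32 in KC) and TRIM22 (0.11 and 0.16).

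IFI27, a mitochondrial protein of unclear function, was at 6.48 CPM in RT-112 KK and 18.3 in KC, and at 13.0 and 95.7 in HT-1376. IFI6, which protects the endoplasmic reticulum from viral remodelling, was at 209 CPM in RT-112 KK and 626 in KC, but at 450 and 367 in HT-1376. IFIT3 went from 0.53 CPM to 6.31 in HT-1376, and from 0.44 to 0.75 in RT-112. IRF9 was past 2-fold in both lines, from 11.4 CPM to 23.8 in RT-112 and from 26.4 to 54.5 in HT-1376, and so were IFIT2 (log2FC 1.28 and 1.31) and IFI27. IFIT2, IFIT3, IRF9 and, in later sentences, HERC6 were named after their values were seen, as were STAT2, OAS2, UBE2L6, HERC5, LGALS3BP, EPSTI1 and IFITM3 in the comparison of lines.

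**Figure D3:**
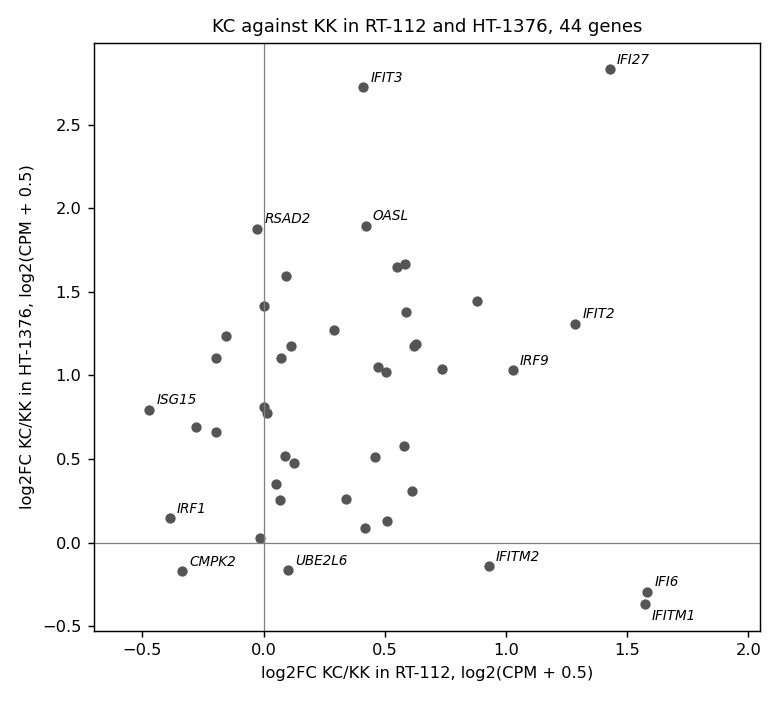
log2FC of KC against KK, on log2(CPM + 0.5), in RT-112 (horizontal) and HT-1376 (vertical) for 44 genes, 1 point per gene, each from 1 library against 1. Of the 44 points 29 lie above 0 on both axes and 1 (CMPK2) below 0 on both, with IFI27, IFIT2 and IRF9 past 1 on both.

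With WWOX beside AP-2γ, HT-1376 and CAL-29 lay on opposite sides of WK, and CAL-29 with AP-2γ alone was not measured, given the doubt on its library. Against WK, which has WWOX alone, the WC library of HT-1376 was higher in 42 of the 44 genes (50.4% of all genes) and past 2-fold in 12 (3.32% of all genes), with a mean log2FC of 0.68 where the median of all genes was 0.00. In CAL-29, WC was lower than WK in 41 of 44 (71.0% of all genes) and past 2-fold in 24 (17.2% of all genes), with a mean of -1.22 and a median of all genes of -0.36. In RT-112, 25 were higher and 19 lower, with a mean of 0.04. Against KK the mean of WC was 0.65 in HT-1376, 0.04 in RT-112 and -0.84 in CAL-29. The HT-1376 and CAL-29 libraries thus lay on opposite sides of their controls, a difference that was not tested, since each rests on 1 library. The level of TFAP2C was not alike in them. It was at 93.1 CPM in WK and 339 in WC of CAL-29, and at 69.0 and 163 in HT-1376, where KK held 158. In CAL-29 the genes under KK by the most in WC were HERC6 (9.14 CPM to 1.01), IFIT3 (10.3 to 1.29), IFIT2 (10.9 to 1.57) and IFIT5 (17.99 to 2.87), while BST2 went from 202 to 482 CPM.

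KA, with AP-2α alone, had a mean below KK in all 3 lines, at -0.35 in CAL-29, -0.10 in HT-1376 and -0.20 in RT-112, where the median of all genes was -0.21, 0.16 and 0.01. Below KK were 24, 26 and 27 of the 44 genes (61.8%, 30.7% and 45.5% of all genes). The kinases JAK1 and TBK1, which are not among the 46, were low in KA and WC of CAL-29. JAK1 was at 82.9 CPM in KK, 17.4 in KA and 22.1 in WC, and TBK1 at 25.9, 5.97 and 8.94. Both fall outside the rule for genes given in full and were chosen after their values were seen. Other genes upstream of the 46 were higher in KA and WC than in KK. IKBKE was at 13.06, 21.01 and 34.07 CPM in KK, KA and WC, and IFNGR2 at 30.94, 55.4 and 61.35. Of all 13022 genes, 2862 in KA and 4198 in WC of CAL-29 were past 2-fold below KK. The part of JAK1 and TBK1 in the values of KA and WC in CAL-29 was not tested. The mean of WK was 0.38 in CAL-29, -0.03 in HT-1376 and -0.00 in RT-112, and that of WA 0.22 in CAL-29, 0.38 in HT-1376 and 0.02 in RT-112.

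**Figure D4:**
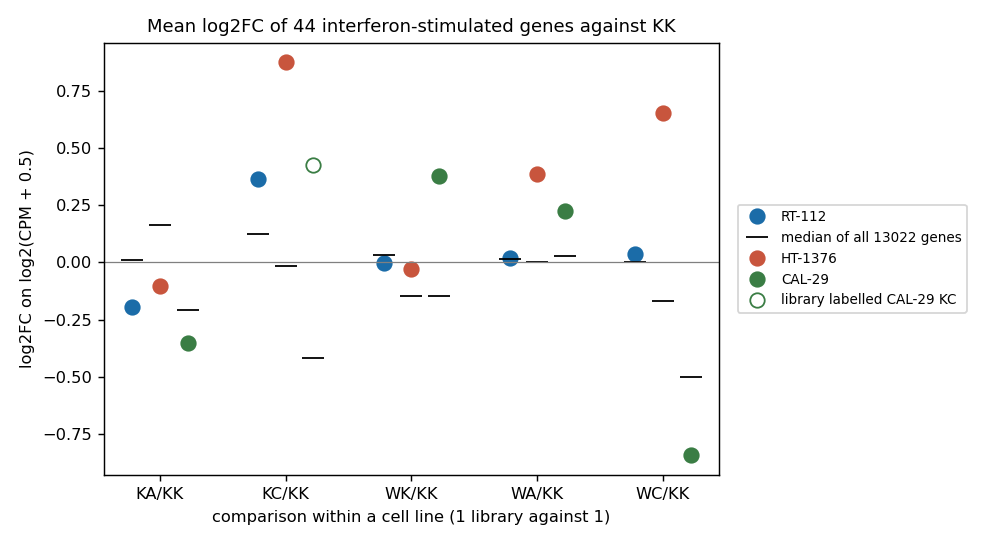
Mean log2FC of 44 genes against KK of the same line, on log2(CPM + 0.5), for 5 variants in 3 lines (points), with the median of all 13022 genes for each (dashes) and the library labelled CAL-29 KC as an open point; each point compares 1 library with 1. KC lies above 0 in RT-112 and HT-1376, KA lies below 0 in all 3 lines, and WC lies at 0.65 in HT-1376 and at -0.84 in CAL-29.

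When the libraries of all variants were fitted together with a term for the line, WWOX, AP-2α and AP-2γ again gave 0 calls among the 44 and among all 13022 genes (0%). At an unadjusted p under 0.05 there were 3, 0 and 0 of the 44, and 12.3%, 1.53% and 2.63% of all genes. The 3 for WWOX were BST2 (log2FC 0.54 ± 0.18, adjusted p = 0.3), OAS1 (0.61 ± 0.28, adjusted p = 0.4) and UBE2L6 (0.37 ± 0.17, adjusted p = 0.4). The AP-2γ effect was above 0 for 34 of the 44 genes, with a median of 0.15 where that of all genes was -0.09. The AP-2α effect was above 0 for 19 and had a median of -0.03, where that of all genes was 0.035. The share of all genes above 0 was not counted for these 2 effects. The AP-2α effect counts the library labelled RT-112 WA as AP-2α. Without that library the median was -0.115, still 0 of the 44 were called for WWOX, AP-2α or AP-2γ, and 1 of the 44 in place of 3 was at an unadjusted p under 0.05 for WWOX.

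WWOX was then fitted within each line, as W against K libraries. In HT-1376 1118 genes were called (8.59%, with 4.21% higher), among them 1 of the 44, BST2, which was higher in W. WWOX itself was at 22.4, 24.7 and 16.95 CPM in KK, KA and KC of HT-1376, and at 18.6, 19.2 and 23.1 in WK, WA and WC. The calls there are thus of the W transduction, with no rise of WWOX RNA seen beside them in the values per gene. These values may not count the transgene, so they do not show that WWOX was not raised. In RT-112 0 genes were called (0%, with 7.52% of all genes and 3 of the 44 at an unadjusted p under 0.05), and in CAL-29 77 (0.591%) with 0 of the 44 (12.3% of all genes and 5 of the 44 at an unadjusted p under 0.05). BST2 falls outside the rule for genes given in full and was chosen after its values were seen. In HT-1376 it was at 197, 250.4 and 216 CPM in KK, KA and KC, and at 316, 435 and 434 in WK, WA and WC. In CAL-29 it was at 202 and 185 CPM in KK and KA, 174 in the library labelled CAL-29 KC, and at 461, 262 and 482 in WK, WA and WC. Every W library was above every K library in both lines. In RT-112 it was at 237, 222 and 337 CPM without WWOX and at 194, 307 and 287 with it, which overlapped.

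The log2FC of BST2 was 0.83 ± 0.24 in HT-1376 (SE, adjusted p = 0.0467 in limma), 0.90 ± 0.27 in CAL-29 (adjusted p = 0.16) and -0.02 ± 0.24 in RT-112. In CPM the mean of 3 W libraries in HT-1376 was 395 ± 68.7 and that of 3 K libraries 221 ± 27.0 (SD), 1.79-fold. The call was lost in 5 of 11 other settings, namely with all 18 libraries, with edgeR and when K, A or C of the second transduction was left out, while the log2FC lay between 0.74 and 0.96 over the 11 (adjusted p of 0.035 to 0.23 in limma and edgeR). COL1A1, the only fibroblast or endothelial marker past the filter, was also higher in the W libraries of HT-1376. It was at 1.32, 5.45 and 11.1 CPM in KK, KA and KC, and at 14.9, 13.2 and 23.3 in WK, WA and WC. Of the 10 epithelial markers 1, KRT19, was higher in W as well. For the epithelial markers KRT7, KRT8, KRT18 and GATA3 every W library of HT-1376 was below every K library (KRT18 at 2650 to 3120 against 3750 to 4956 CPM, GATA3 at 73.8 to 91.0 against 134 to 243), with no call. The part of these markers in the BST2 result was not tested. The effects of HT-1376 and CAL-29 differed from that of RT-112 by 0.84 ± 0.34 and 0.92 ± 0.36, with adjusted p of 0.24 and 0.31, so a difference between lines was not shown. None of the 44 passed the tests of a difference in the WWOX effect, where of all genes 1.27% did between HT-1376 and RT-112 (0.783% higher), 0.276% between CAL-29 and RT-112, and 3.85% between CAL-29 and HT-1376 (1.73% higher, 2.12% lower), and at an unadjusted p under 0.05 there were 6, 4 and 8 of the 44, and 15.8%, 12.2% and 20.5% of all genes. Without overlap between W and K libraries were 5 of the 44 genes higher and 5 lower in HT-1376 (12.8% and 22.8% of all genes), 4 and 1 in RT-112 (9.48% and 11.5%), and 3 and 4 in CAL-29 (9% and 9.8%). These shares were near to or below those of all genes.

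The largest effects of WWOX in HT-1376 and in RT-112 were those of IFI27, with opposite signs. In HT-1376 IFI27 was at 13.0, 11.4 and 95.7 CPM in KK, KA and KC, and at 109, 152 and 200 in WK, WA and WC. In RT-112 it was at 6.48, 0.84 and 18.3 CPM without WWOX and at 3.49, 0.56 and 0.54 with it. The groups did not overlap in HT-1376 and overlapped in RT-112, where each W library was below the K library with the same second transduction. The log2FC was 2.58 ± 0.83 in HT-1376 (adjusted p = 0.069), -1.77 ± 0.83 in RT-112 (adjusted p = 0.66) and -0.36 ± 0.94 in CAL-29 (adjusted p = 0.95), so that none passed. In CAL-29 it was at 37.0 and 78.8 CPM in KK and KA and at 93.1, 39.8 and 37.6 in WK, WA and WC.

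IFI6 and IRF7 were the other genes with the largest effects in RT-112. IFI6 was at 209, 77.2 and 626 CPM in KK, KA and KC of RT-112 and at 107, 67.5 and 61.5 in WK, WA and WC. The groups overlapped through KA, and the log2FC was -1.50 ± 0.61 (adjusted p = 0.57). IFI6 lay between 315 and 792 CPM in HT-1376 and between 53.2 and 199 in CAL-29, with no call. IRF7 went from 0 reads in each of the 3 K libraries of RT-112 to between 10 and 13 reads in each W library, which is at least 3.97-fold higher than the limit of 3 reads a library. In CAL-29 it was at 76.7 and 85.9 CPM without WWOX (72.0 in the library labelled CAL-29 KC) and at 46.1, 58.8 and 30.7 with it, so that W lay below K. Its log2FC was 1.19 ± 0.31 in RT-112 (adjusted p = 0.3) and -0.93 ± 0.35 in CAL-29 (adjusted p = 0.28).

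**Figure D5:**
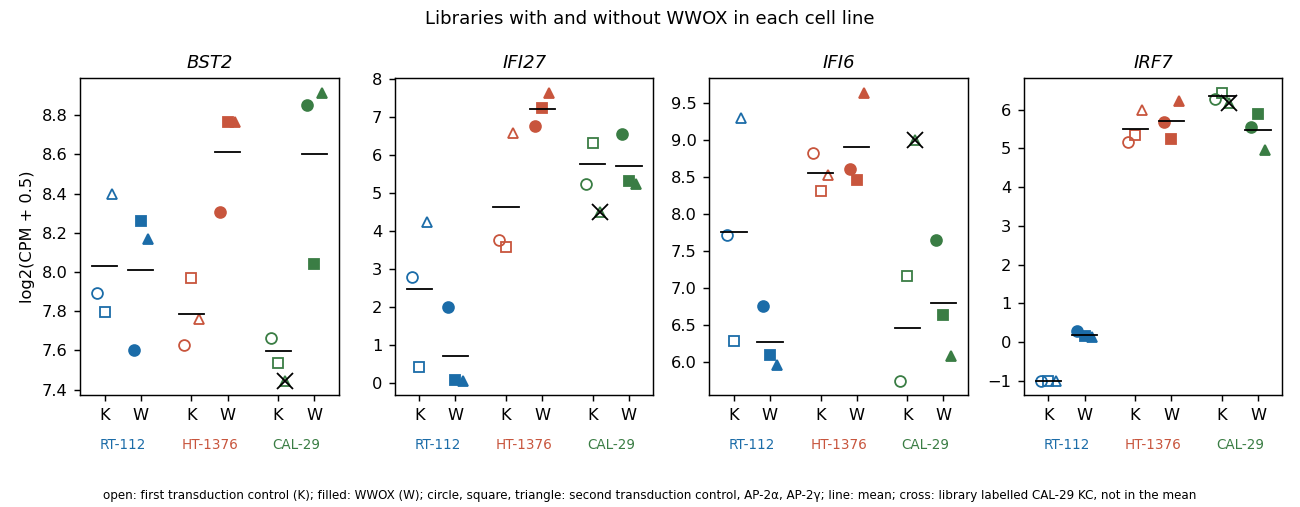
Levels of BST2, IFI27, IFI6 and IRF7 as log2(CPM + 0.5) in each library, by cell line and first transduction (K without, W with WWOX); symbols mark the second transduction, lines are means, and the crossed point is the library labelled CAL-29 KC. The W libraries of BST2 lie above the K libraries in HT-1376 and CAL-29, and those of IFI27 above them in HT-1376 and at or below 3.49 CPM in RT-112.

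The other genes with the largest effects of WWOX in HT-1376 and CAL-29 did not pass the threshold. RSAD2, or viperin, was at 0.33, 0.4 and 2.55 CPM in KK, KA and KC of HT-1376 and at 2.87, 1.53 and 5.42 in WK, WA and WC (1.38 ± 0.49, adjusted p = 0.098), and was at 0.11 CPM or less in RT-112. TRIM22, a ubiquitin ligase, was at 4.08, 2.27 and 9.86 CPM without WWOX in HT-1376 and at 0.86, 2.24 and 2.36 with it (-1.21 ± 0.59). Both genes overlapped between W and K. ISG20, an exonuclease for RNA, was at 42.0 and 53.1 CPM without WWOX in CAL-29 and at 16.2, 38.2 and 16.0 with it (-1.28 ± 0.52, adjusted p = 0.31). OAS1 was at 15.9 and 19.7 CPM without WWOX in CAL-29 and at 102, 27.5 and 27.3 with it (1.22 ± 0.48, adjusted p = 0.3). In both genes W and K did not overlap. SAMD9, a growth regulator, was at 6.28 and 1.99 CPM without WWOX in CAL-29 and at 4.09, 25.0 and 4.5 with it, with the WA library highest.

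Genes upstream of the 46 were measured with the same fits. Of 8 listed interferon ligands 1, IFNL1, was in the table, and it did not exceed 0.27 CPM. Called for WWOX in HT-1376 were 0 of 8 receptors and kinases past the filter and 1 of 9 sensing and adaptor genes. Of 6 negative regulators 1 was called, as was 1 of 6 genes for chemokines and interferon-γ targets, beside 8.59% of all genes. SOCS1, which inhibits the receptor kinases, was at 7.43, 10.4 and 23.5 CPM in KK, KA and KC of HT-1376 and at 63.7, 44.2 and 80.3 in WK, WA and WC, without overlap (log2FC 2.27 ± 0.42, adjusted p = 0.0065 in limma). IKBKE, a kinase that activates IRF proteins, was at 26.6, 32.1 and 59.6 CPM and at 102, 94.5 and 125 (1.51 ± 0.42, adjusted p = 0.043). In RT-112 and CAL-29 0 genes of these 4 lists were called for WWOX. Between RT-112 and HT-1376, 5 of 8 receptors and kinases differed (3 higher, 2 lower in RT-112). Of the sensing and adaptor genes 6 of 9 did so (2 higher, 4 lower). So did 4 of 6 negative regulators and 5 of 6 chemokine and interferon-γ genes, all lower in RT-112. This stands beside 62.2% of all genes, 19.6% higher and 42.6% lower. CXCL10, CIITA, CD274, GBP3, GBP4, PIAS1, PTPN2, IFNLR1, CGAS, DHX58 and TBK1 did not reach 5 CPM in RT-112. They passed the filter through other libraries, which favoured a difference, and CXCL10 did so only in the library labelled CAL-29 KC. SOCS1 and IKBKE were named after their values were seen.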

How the data were processed

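CAGE-seq was performed on 18 libraries, 1 for each of 3 cell lines and 6 variants. Single-end 75 nt reads had been aligned by the authors (BWA, then HISAT2 2.0.5 for what was left, genome hg38) and grouped into clusters with Paraclu, and the deposited values are CPM per gene. The annotation was not given in the sources used here. Ensembl identifiers were joined to GENCODE 44 (16553 of 16575 matched). Whole reads were recovered from the CPM steps (99.97% to 99.99% of values lay within 0.005 CPM of a whole read). No libraries of a line were duplicates (smallest chi-square per degree of freedom 20.4).

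A gene was kept if any library had 5 CPM or more, and limma 3.58.1 was run in R 4.3.3 on log2(CPM + 0.5) with a trended variance and Benjamini-Hochberg adjustment over all genes (threshold 0.05). A fold change on this scale understates that of low genes. Variants were compared with KK over 18 libraries without a block. The authors fitted limma with voom weights after scaling with calcNormFactors and did not state a block. The fit used here had neither weights nor that scaling. WWOX, AP-2α, AP-2γ and line effects used 17 libraries with terms for the line and both transductions. Libraries of different variants are paired by the cell line, by design, and their deviations from variant means correlated within a line (0.036 to 0.881 for CAL-29, 0.588 to 0.896 for HT-1376, 0.742 to 0.915 for RT-112). Fits were tested on simulated data.

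Values in full are given for the 3 genes with the largest effect of WWOX in each line, the 2 with the widest range over lines, the most abundant gene of each role and any gene called in the effects over all lines. Members and lists were chosen with earlier results of these data known. Other settings tried were a pseudocount of 0.05 or 2 CPM, no filter, 5 CPM in 3 libraries, TMM, quantile normalization, all 18 libraries, limma-voom, edgeR 4.0.16, DESeq2 1.42.0, a replicate block and libraries left out. Leaving out the libraries labelled CAL-29 KC and RT-112 WA together was added after the data were seen. Plots were drawn with matplotlib 3.10.9.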

Additional observations from a re-analysis of the deposited data

Results flagged for a closer look

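In 9 cases the effect of WWOX on a gene went one way in every pair of libraries of one cell line and the other way in every pair of another, a pair being a W library and the K library with the same second transduction (3 pairs in RT-112 and HT-1376, 2 in CAL-29). How many of all genes show such a pattern was not counted, so the 9 cases cannot be set against a general rate. The cases that involve RT-112 also use its WA library, whose label is in doubt. The differences between lines were tested in limma, and none passed after adjustment over all genes. The difference in log2FC was 4.36 ± 1.17 for IFI27 (HT-1376 minus RT-112, adjusted p = 0.084) and -2.12 ± 0.47 for IRF7 (CAL-29 minus RT-112, adjusted p = 0.078). For CMPK2, an enzyme of nucleotide synthesis, it was 1.62, for HERC5 -1.29 and for TRIM22 -1.68 (HT-1376 minus RT-112, adjusted p of 0.38, 0.38 and 0.35). For ISG20 it was -1.75, for ISG15 -1.30, for PARP9 1.42 and for DTX3L 1.41 (CAL-29 minus HT-1376, adjusted p of 0.17, 0.14, 0.24 and 0.26). IRF7 in RT-112 rests on 0 reads without WWOX and 10 to 13 reads with it, and the HERC5 and TRIM22 levels in RT-112 were 0.84 CPM or less.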

How the results depend on the processing

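The comparisons of variants with KK gave 0 of the 44 genes under every alternative, with or without the cell line as a replicate block (0 in each of the 5 comparisons). Over all counts of called genes 210 alternative values were within 1.5 times the reported one and 15 were not. For WWOX in HT-1376 the count of 1 became 3 with a pseudocount of 2 CPM (BST2, IFI27, IFITM2), 3 with TMM (BST2, IFI27, PLSCR1), 0 with all 18 libraries, 0 with edgeR, and 0 to 2 without a second transduction (2 without C, namely IFI27 and RSAD2). For WWOX in RT-112 the count of 0 became 1 (IRF7) with a pseudocount of 0.05 CPM. The difference of WWOX between HT-1376 and RT-112 gave 1 (IRF7) with that pseudocount and with edgeR, and that between CAL-29 and RT-112 gave 1 (IRF7) with that pseudocount, TMM, quantile normalization and edgeR, over 11 alternatives with adjusted p of 0.0037 to 0.38. Between HT-1376 and CAL-29 the count was 13 to 24 when a variant was left out (13 without KK), against 22. The mean change of WC against KK over the lines was -0.05, and 0.02 by the median, 0.18 with TMM, 0.11 with quantile normalization and -0.402 to 0.344 when a line was left out (0.344 without replicate 3, CAL-29). That of WK was 0.12, and -0.0146 to 0.187 when a line was left out (-0.0146 without CAL-29). The other 45 alternative values of the mean change kept their sign or moved by less than the spread between lines. The cause of these changes was not tested. Letting the ISRE core have 1 base less or 1 more between its parts gave 17 and 7 of the 51 promoter windows of these genes instead of 31 (33.3% and 13.7%, against 3.12% and 2.86% of all promoters). At 0.158 CPM or less a gene cannot be told from one without reads, which touches at least 1 RT-112 library for IRF7, OAS2, IFIT1, RSAD2, HERC5, IFI44, IFI44L, EPSTI1, XAF1 and TRIM22.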
